A study of Mus musculus with 8 samples.

Results

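The Hippo pathway genes Yap1, Wwtr1 (the gene of Taz), Tead1, Tead2, Tead3, Tead4, Lats1, Lats2, Amotl2 and Vgll4 were followed between the germinal zones and the cortical plate of the embryonic mouse neocortex. The genes were taken by symbol, matched through RefSeq accessions, and every probe was kept. This gave 10 genes with 14 probes, out of 20283 named genes and 39429 gene probes on the array. The RNA was total RNA of ICR mouse neocortex at embryonic day 16. The ventricular and subventricular zones, kept as 1 tissue (V/SVZ), where progenitors divide, had been separated by manual dissection from the cortical plate (CP), where young neurons settle. There were 4 samples of each tissue on 8 arrays of 1 colour, and the series sets the expression profile of one tissue against the other. The labels name no transgene, mutation or treatment in either tissue, and do not say whether the samples came from separate or pooled embryos. The p-values therefore cover only the spread among these 8 samples, part of which may be technical.

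Hippo signalling restrains tissue growth through a chain of protein kinases. The kinases Mst1 and Mst2 (genes Stk4 and Stk3) activate Lats1 and Lats2, and these phosphorylate the co-activators Yap and Taz, which then stay in the cytoplasm or are degraded. When the kinases are quiet, Yap and Taz enter the nucleus and work through the Tead proteins, which bind DNA and carry little activating power alone. Vgll4 competes with Yap for Tead, and Amotl2 holds Yap and Taz at cell junctions. In the developing brain Yap is known as a promoter of progenitor proliferation. Lats2 and Amotl2 are themselves well-known targets of Yap and Taz, so that they also take part in feedback.

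The tissue labels were set against marker genes. All 9 radial glia markers were higher in V/SVZ (median log2 difference 3.83), and all 5 intermediate progenitor markers were too (median 5.58). All 9 neuron markers were higher in CP (median -1.53). Pax6, which marks radial glia, was at least 105-fold higher in V/SVZ, Eomes, which marks intermediate progenitors, was 336-fold higher, and Mapt, a neuronal microtubule gene, was 8.16-fold higher in CP. With normexp, another background correction, the folds of Pax6 and Eomes were 38.6 and 191. Each array had 58.5% to 62.9% of gene probes well above background, and a 75th percentile of signal between 2113 and 2566 units of intensity. Correlations across probes, which are not independent replicates, were 0.992 or more within a tissue and 0.879 to 0.895 between tissues. Slide 1 and scan 1 held the 4 V/SVZ arrays and slide 2 and scan 2 the 4 CP arrays, so slide and tissue cannot be told apart. In bulk tissue, fewer cells of a type and less RNA per cell cannot be told apart either.

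Promoter sequences are shown first because the pathway acts through a DNA motif. Tead proteins bind GGAATG, which reads CATTCC on the other strand. The motif was searched on both strands in the window from 250 bases before to 50 bases after each RefSeq start (assembly GRCm38.p6), and no other motif was searched. Of the 10 members, 8 had a window, and the motif was in at least 1 window of 6 of them (75%). Among all 27025 genes with a window it was in 16.6%. Counted by window, 8 of 12 member windows held it (66.7%), against 14.7% of all 32851 windows of this length. Of the target genes described further on, 4 of 12 with a window held it (33.3%: Ankrd1, Axl, Ccn1 and Crim1). Of the genes listed as upstream, 8 of 23 held it (34.8%). This upstream list includes Vgll1, Vgll2 and Vgll3, relatives of Vgll4, and Vgll1 and Vgll3 hold a match. The Wwtr1 windows overlap and hold the same match, so windows of a gene are not independent. A match is a description of the letters and not a measured binding site.

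The 250 bases before the start of Yap1, Wwtr1, Vgll4, Amotl2 and Tead3 are given with their matches in capitals, since these are the member promoters with a match before the start. Tead2 is shown as the member with the largest fold and no match, Lats2 by 30 bases around its match, and Ccn1 as a classic target gene, which also holds a match. All are written 5′ to 3′ on the strand of the gene.
Yap1, chr9:8004597-8004846, minus strand: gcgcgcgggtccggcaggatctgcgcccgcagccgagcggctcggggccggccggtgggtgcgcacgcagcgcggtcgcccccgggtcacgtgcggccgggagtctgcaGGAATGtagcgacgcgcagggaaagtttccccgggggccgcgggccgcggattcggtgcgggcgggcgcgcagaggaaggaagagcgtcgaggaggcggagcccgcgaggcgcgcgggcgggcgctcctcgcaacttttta
Wwtr1, chr3:57575911-57576160, minus strand: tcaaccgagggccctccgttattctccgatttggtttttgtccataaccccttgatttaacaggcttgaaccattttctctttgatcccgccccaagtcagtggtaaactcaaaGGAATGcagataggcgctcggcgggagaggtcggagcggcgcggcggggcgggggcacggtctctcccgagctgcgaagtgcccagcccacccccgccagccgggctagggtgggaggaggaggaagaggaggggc
Vgll4, chr6:114969204-114969453, minus strand: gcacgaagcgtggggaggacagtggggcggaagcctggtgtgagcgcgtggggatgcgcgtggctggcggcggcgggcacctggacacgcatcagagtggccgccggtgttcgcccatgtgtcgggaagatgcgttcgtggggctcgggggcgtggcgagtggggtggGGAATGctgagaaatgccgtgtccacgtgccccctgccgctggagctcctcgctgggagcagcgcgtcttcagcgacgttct
Amotl2, chr9:102717554-102717803, plus strand: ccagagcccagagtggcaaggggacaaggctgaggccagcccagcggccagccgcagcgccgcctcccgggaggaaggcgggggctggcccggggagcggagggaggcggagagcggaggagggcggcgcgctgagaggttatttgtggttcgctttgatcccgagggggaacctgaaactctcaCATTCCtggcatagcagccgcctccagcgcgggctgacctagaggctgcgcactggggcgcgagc
Tead3 (the second of its starts), chr17:28350601-28350850, minus strand: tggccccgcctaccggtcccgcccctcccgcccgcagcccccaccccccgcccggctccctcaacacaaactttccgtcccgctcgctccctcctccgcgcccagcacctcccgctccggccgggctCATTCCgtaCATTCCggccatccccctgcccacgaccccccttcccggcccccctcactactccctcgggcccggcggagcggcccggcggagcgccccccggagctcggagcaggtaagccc
Tead2, chr7:45215542-45215791, plus strand: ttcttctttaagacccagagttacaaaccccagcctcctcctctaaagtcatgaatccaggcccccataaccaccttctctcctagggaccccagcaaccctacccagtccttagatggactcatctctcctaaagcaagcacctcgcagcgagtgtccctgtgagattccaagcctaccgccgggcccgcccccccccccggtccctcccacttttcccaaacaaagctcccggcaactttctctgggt
Lats2, chr14:57746102-57746131, minus strand: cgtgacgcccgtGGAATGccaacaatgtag
Ccn1, chr3:145649986-145650235, minus strand: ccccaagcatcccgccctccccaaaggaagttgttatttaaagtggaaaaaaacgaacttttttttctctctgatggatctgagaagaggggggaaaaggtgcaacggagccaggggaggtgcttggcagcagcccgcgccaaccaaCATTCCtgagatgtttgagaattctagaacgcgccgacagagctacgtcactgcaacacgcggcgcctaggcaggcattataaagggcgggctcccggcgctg

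The match lay 141 bases before the start in Yap1, 82 in Vgll4 and 65 in Amotl2, the last as CATTCC. In Wwtr1 it lay 136 bases before one start and 170 before the other. Tead3 had the most matches: CATTCC stood 123 and 114 bases before its second start, GGAATG 182 bases before its first, and a further GGAATG just after the second start. The match of Lats2 lay 5 bases after its start. These letters were not in the windows of Lats1 or Tead2. Members with a match were found both among the genes that differed between tissues (Yap1, Wwtr1, Vgll4, Tead3 and Lats2) and among those that did not pass the test (Amotl2).

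**Figure D1:**
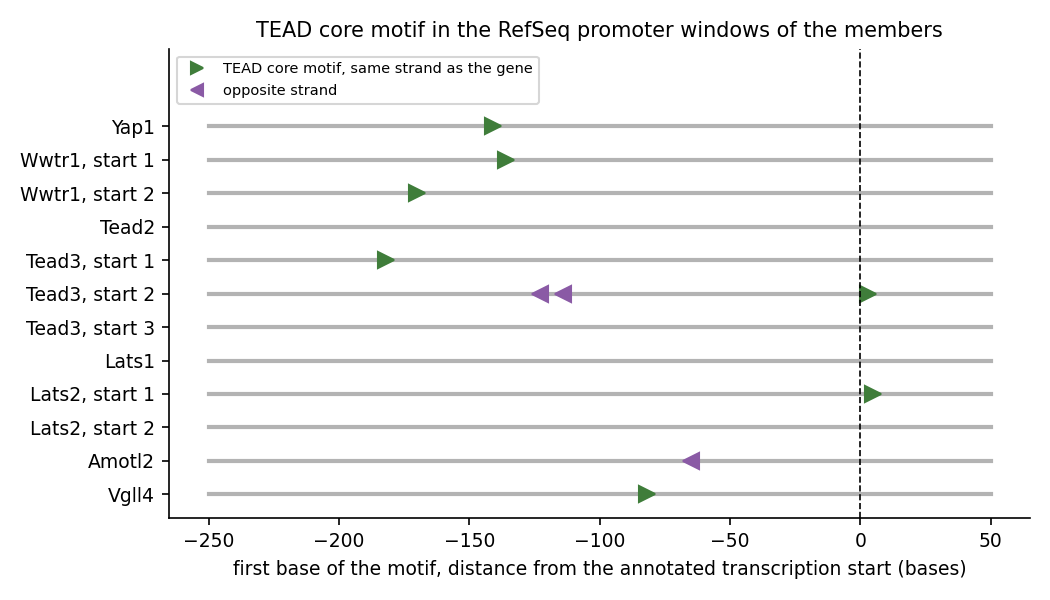
Positions of the motif GGAATG or its reverse complement in the promoter windows of the member genes. The horizontal axis is the distance from the annotated start in bases, each line is 1 window, and marks are matches; Yap1, Wwtr1, Vgll4, Amotl2 and Tead3 have matches before the start, while Lats1 and Tead2 have none.

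Values are given as log2 of the processed signal relative to the 75th percentile of the same array, so that 0 is the 75th percentile. A gene is represented by its brightest tested probe. Differences are V/SVZ minus CP, and a gene was called where the limma p-value, adjusted with the Benjamini-Hochberg method over all probes tested, was under 0.05. The direction is that of the scanner files. It is opposite to that given by the column names of the authors' deposited table, where each column tracked an array of the tissue it is not named for. Of the 9 members that could be tested, 7 were higher in V/SVZ, 0 were higher in CP and 2 were not called. The 19225 genes tested comprise 13824 with a symbol and 5401 known only by their array identifier, each counted as 1 gene. Among them 79.5% were called in either direction, 35% towards V/SVZ and 44.6% towards CP. At 2-fold or more, 6 of 9 members were higher in V/SVZ, against 13.7% of all genes. The median difference of the members was 2.09 log2 units, while that of all genes tested was -0.09. Of the 12 member probes tested, 10 were called and 10 did not overlap between the tissues, against 79.7% called and 75.5% not overlapping among all 23853 probes. All 10 were higher in V/SVZ and 0 in CP, where the shares over all probes were 35.2% and 44.4%.

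**Figure D2:**
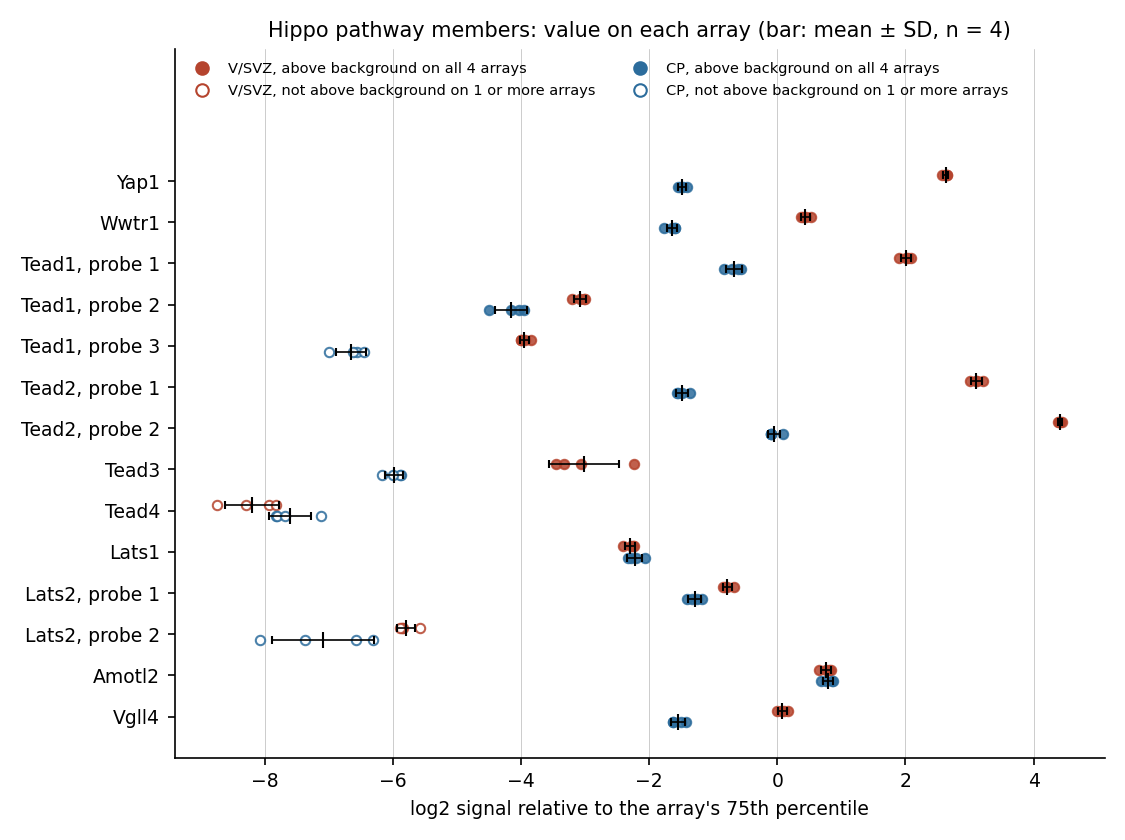
Signal of every member probe on each array, as log2 relative to the array's 75th percentile, for 4 V/SVZ and 4 CP arrays; bars are the mean ± SD, and open symbols mark a probe that was not well above background on at least 1 array of that tissue. The V/SVZ and CP arrays of Yap1 lie at 2.57 to 2.65 and -1.54 to -1.41, while those of Lats1 and of Amotl2 overlap.

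Both co-activators were higher in the germinal zones, Yap1 more so than Wwtr1. The Yap1 probe gave 2.57, 2.65, 2.62 and 2.65 on V/SVZ arrays 1 to 4, and -1.54, -1.52, -1.48 and -1.41 on CP arrays 1 to 4. All V/SVZ values were above all CP values, with a gap many times the spread within a tissue. In processed intensity units this was 14365 to 16148 in V/SVZ against 751 to 796 in CP. Yap1 was 17.3-fold higher in V/SVZ (log2 difference 4.11 ± 0.04 SE with 4 arrays per tissue, limma adjusted p = 3.28e-10). A share of 2.99% of genes differed more in either direction. Wwtr1, which encodes the paralogous co-activator Taz, gave 0.52, 0.40, 0.45 and 0.37 in V/SVZ and -1.60, -1.76, -1.64 and -1.60 in CP. The tissues again did not overlap. Wwtr1 was 4.25-fold higher in V/SVZ (2.09 ± 0.05 SE, limma adjusted p = 7.82e-09), and 13.0% of genes differed more. The Yap1 difference exceeded that of Wwtr1 by 2.02 log2 units, a 4.07-fold larger ratio (exact two-sided permutation test, p = 0.0286, adjusted p = 0.0357 over 5 pairs of members). With 4 arrays against 4, 0.0286 is the smallest p this test can give. Both genes were read by a single probe, and the test does not cover differences in how probes respond.

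Among the Tead genes, which encode the DNA-binding partners of Yap and Taz, Tead1, Tead2 and Tead3 were higher in V/SVZ and Tead4 was below background. Tead2 was measured by 2 probes. The brighter read 4.45, 4.41, 4.38 and 4.39 in V/SVZ and -0.10, -0.10, 0.087 and -0.10 in CP. The other read 3.21, 3.10, 3.01 and 3.12 against -1.57, -1.55, -1.36 and -1.49. Both probes separated the tissues completely and gave folds close to one another. Tead2 was 22.0-fold higher in V/SVZ by the brighter probe (4.46 ± 0.05 SE, limma adjusted p = 3.57e-10) and 24.3-fold by the other. It had the largest fold of the 9 tested members, and 2.33% of genes differed more in either direction.

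Tead1 was measured by 3 probes of very different brightness. The brightest gave 2.09, 2.01, 2.04 and 1.90 on the V/SVZ arrays and -0.70, -0.57, -0.84 and -0.61 on the CP arrays, without overlap. By this probe Tead1 was 6.43-fold higher in V/SVZ (2.69 ± 0.07 SE, limma adjusted p = 8.11e-09), and 8.43% of genes differed more in either direction. The second probe was dimmer, at -3.21 to -2.99 in V/SVZ and -4.50 to -3.95 in CP. It gave the same direction and a smaller fold of 2.12 (1.08 ± 0.12 SE, limma adjusted p = 5.63e-05). The third probe, at -4.01 to -3.85 in V/SVZ, was not well above background on any CP array, so that only a bound could be had. It set V/SVZ at least 3.37-fold higher, where the bound compares the mean of the bright tissue with the lowest signal that counts as well above background on each array. With normexp the same probe gave 1.90-fold, below that bound. The 3 probes gave 1 direction and different sizes.

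The single Tead3 probe was dim and varied more. It gave -2.24, -3.33, -3.06 and -3.46 in V/SVZ, where array 1 was the highest, and -5.88, -6.17, -5.89 and -6.00 in CP. The tissues did not overlap, but only 1 of the 4 CP values was well above background. Tead3 was 7.80-fold higher in V/SVZ (2.96 ± 0.25 SE, limma adjusted p = 1.06e-05), and with normexp it was 3.01-fold higher. Tead4, known mostly from the trophectoderm and muscle, gave -8.75 to -7.82 in V/SVZ and -7.82 to -7.12 in CP. None of its values was well above background, so it was not tested and no fold is given.

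The Tead genes were also set against each other by their differences between tissues. By the brightest probe of each gene, the Tead2 difference was larger than that of Tead1 by 1.78 log2 units (3.43-fold, exact permutation p = 0.0286, adjusted p = 0.0357). The test covers the spread among arrays and not that between probes of a gene. The Tead3 difference rests on CP values of which only 1 of 4 was well above background. Its comparisons with Tead1 and Tead2 were among the 5 pairs tested, but for this reason only their values are given. Tead2 stood above Tead3 by 1.498 log2 units, and by 2.86 under normexp. Tead1 minus Tead3 was -0.28, with Tead1 ahead by 1.01 under normexp and a value of -0.80, with Tead3 ahead, when the probes of a gene were averaged. The order of Tead1 and Tead3 was therefore not settled.

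Vgll4, the cofactor that competes with Yap for Tead, was higher in the germinal zones as well. It gave 0.05, 0.10, -0.01 and 0.16 in V/SVZ and -1.63, -1.64, -1.42 and -1.51 in CP. All V/SVZ arrays lay above all CP arrays. Vgll4 was 3.09-fold higher in V/SVZ (1.63 ± 0.06 SE, limma adjusted p = 7.68e-08), and 17.9% of genes differed more in either direction. The other members of its family on the list of pathway genes, Vgll1, Vgll2 and Vgll3, were not well above background on any array.

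The kinases that act on Yap and Taz differed less: Lats1 was not called, and Lats2 was slightly higher in V/SVZ. The Lats1 probe gave -2.26, -2.29, -2.24 and -2.40 in V/SVZ and -2.21, -2.28, -2.07 and -2.34 in CP. The arrays of the tissues overlapped. The Lats1 difference was -0.07 log2 units, with a 95% confidence interval from -0.22 to 0.08 (limma adjusted p = 0.342). The brighter of the 2 Lats2 probes gave -0.68, -0.81, -0.85 and -0.79 in V/SVZ and -1.25, -1.17, -1.40 and -1.33 in CP, without overlap. Lats2 was 1.42-fold higher in V/SVZ (0.51 ± 0.06 SE, limma adjusted p = 9.46e-05). Its size was ordinary among these data, since 52.7% of genes differed more in one direction or the other. The second Lats2 probe was at -5.89 to -5.58 in V/SVZ and -8.07 to -6.31 in CP, was well above background on 3 V/SVZ arrays and on 0 CP arrays, and was not tested. The Lats1 and Lats2 differences differed by -0.58 log2 units (Lats1 minus Lats2), a 1.49-fold larger ratio for Lats2 (exact permutation p = 0.0286, adjusted p = 0.0357).

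Amotl2, the junction protein that binds Yap and Taz, gave 0.84, 0.80, 0.66 and 0.75 in V/SVZ and 0.86, 0.68, 0.85 and 0.76 in CP. The arrays overlapped throughout. Its difference was -0.03 log2 units, with a 95% confidence interval from -0.16 to 0.11 (limma adjusted p = 0.691). Both Lats1 and Amotl2 were well above background on all 8 arrays.

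**Figure D3:**
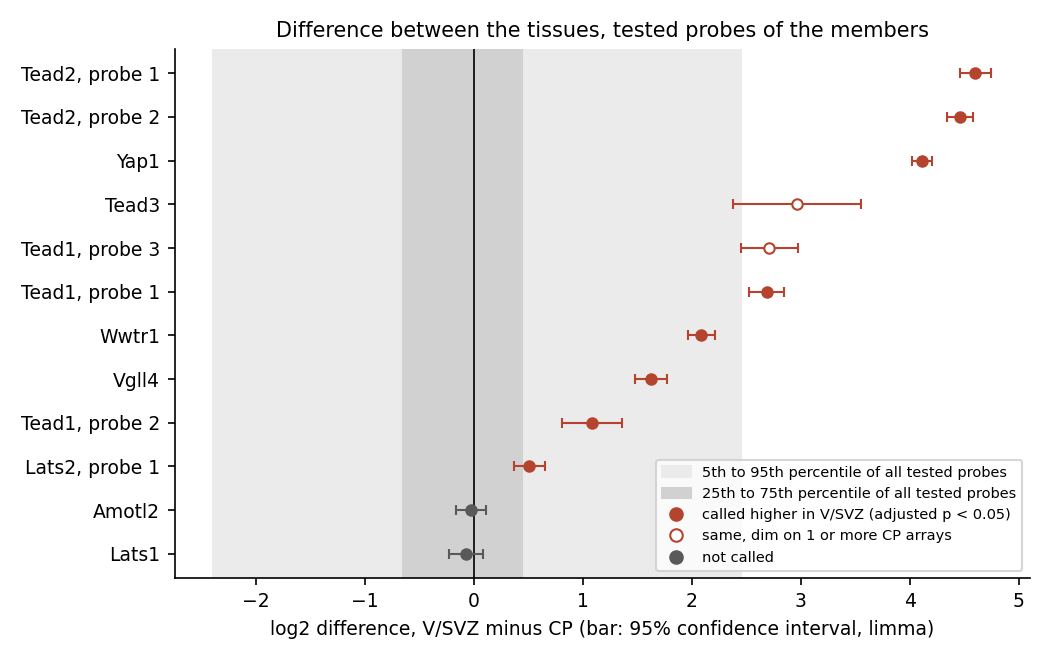
Log2 difference between V/SVZ and CP for each tested member probe, with its 95% confidence interval, on a log2 axis where positive values are higher in V/SVZ; grey bands hold the middle of all tested probes (25th to 75th and 5th to 95th percentile). Tead2 (4.46 and 4.60) and Yap1 (4.11) are the furthest from 0, and the intervals of Lats1 and Amotl2 include 0.

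For Yap1, Wwtr1 and Tead2, the genes with the closest pattern over the 8 arrays were named by Pearson correlation among 13799 named genes. The 3 closest to Yap1 were Rcn3, Cflar and Cdon, those closest to Wwtr1 were Ctdsp2, Tcf12 and Cdc14a, and those closest to Tead2 were Ncaph, Aldoc and Spc25. Their correlations lay between 0.999527 and 0.999955. With 2 tissues of 4 arrays that lie far apart, very high correlations are common. As many as 1867 genes had r above 0.99 with Yap1, 1705 with Wwtr1 and 1881 with Tead2.

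A further 28 genes of the pathway, listed here as upstream genes, were examined. They include the Vgll4 relatives Vgll1, Vgll2 and Vgll3, which could not be tested. In all, 24 could be tested. Of these, 10 were higher in V/SVZ, 7 were higher in CP and 7 were not called, with a median difference of 0.03 beside -0.09 for all genes. At 2-fold or more, 5 of 24 were higher in V/SVZ and 3 of 24 in CP, against 13.7% and 16.5% of all genes. Among 13 listed kinases and adaptors, 4 were higher in V/SVZ, 4 were higher in CP and 5 were not called. Over all genes, 35% and 44.6% were called in these directions. At 2-fold or more, 0 of the 13 were higher in V/SVZ and 2 in CP. This list also holds kinases of the Taok, MAP4K and Stk38 families, while Lats1 and Lats2 are counted as members. Among 11 tested scaffold and junction genes, 6 were called towards V/SVZ and 3 towards CP. The calls of some upstream genes outside the largest differences depended on the setting, as was seen after their values were known. Sav1, the scaffold of Mst1 and Mst2, was called in CP at -0.25, and lost its call with median scaling (-0.16, limma adjusted p = 0.0973) and under normexp (-0.012, 0.837). Mob1a, the adaptor of Lats1 and Lats2, was called in V/SVZ at 0.80 and lost its call under normexp (0.15, limma adjusted p = 0.138). Only 1 of the 4 CP values of Mob1a was well above background. Taok2 was called in V/SVZ at 0.55 by a probe measured on 3 CP arrays, with no value on CP array 4. Its dimmer probe gave -0.30. The call was lost when probes were averaged (0.51, limma adjusted p = 0.241), where CP array 4 held only the dimmer probe. This average is therefore not a like comparison of the tissues.

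Ajuba had the largest difference on the upstream list. It encodes a LIM protein that binds Lats kinases and restrains them. Ajuba gave 0.44, 0.36, 0.15 and 0.42 in V/SVZ and -4.45, -4.49, -4.34 and -4.23 in CP, with all V/SVZ arrays above all CP arrays. It was 26.3-fold higher in V/SVZ (4.72 ± 0.08 SE, limma adjusted p = 1.36e-09), and 15.2-fold higher under normexp. Limd1, a relative of Ajuba with the same known action, was 4.51-fold higher in V/SVZ, and Amot, the founding angiomotin, was 4.39-fold higher. Wwc1, which encodes the scaffold Kibra, was 2.16-fold higher and Amotl1, another angiomotin, was 2.06-fold higher. Wtip, the remaining LIM protein of this family, was not called (-0.09, 95% confidence interval -0.32 to 0.13).

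In the other direction, Fat4, a giant cadherin that takes part in cell polarity, was 4.19-fold higher in CP. Its arrays ran from -0.58 to -0.38 in V/SVZ and from 1.60 to 1.63 in CP, with no overlap. Dchs1, the cadherin that binds Fat4 on neighbouring cells, was not called, at 0.05 with a 95% confidence interval from -0.07 to 0.18. Taok3, a kinase that acts on Mst1 and Mst2, was 3.53-fold higher in CP, and Tnik, a kinase of the MAP4K group that can act on Lats1 and Lats2, was 2.61-fold higher. Smaller differences towards CP were seen in Wwc2, a relative of Kibra, at 1.37-fold, and in Mink1, a relative of Tnik, at 1.28-fold.

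Among the listed kinases and adaptors, Stk4 (0.01), Mob1b (-0.09), Taok1 (-0.07) and Map4k4 (-0.06) were not called. A second, dimmer Map4k4 probe was called higher in V/SVZ at 0.72, and a second, dimmer Stk4 probe was called higher in CP at -0.11, so the probes of these genes disagreed. The Taok1 difference was called without V/SVZ array 2 (-0.09, limma adjusted p = 0.0466), and with spike-in scaling (0.0470) or trended, robust variances (0.0443). Mob1b was called higher in CP under normexp (-0.33, limma adjusted p = 0.000618). Stk3, the gene of Mst2, was 2.14-fold higher in V/SVZ with an SE of 0.46 log2 units, which was not called (limma adjusted p = 0.0561). Array 1 was the lowest of its tissue in both: Stk3 gave -2.50 on V/SVZ array 1 and -0.996 to -0.86 on the other V/SVZ arrays, and -3.42 on CP array 1 and -2.14 to -2.04 on the other CP arrays. Without V/SVZ array 1 the adjusted p was 0.00626, and with the replicate number as a block it was 8.52e-05. Stk3 was also called with median scaling (0.0253), quantile normalization (0.0474) and normexp (0.0242).

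Ptpn14, a phosphatase that binds Yap, was named after its values were seen because its call depended on the setting. It was higher in V/SVZ at 0.43 ± 0.15 SE (limma adjusted p = 0.0266), with 2 of 4 CP values well above background. The adjusted p rose to 0.0547 with the replicate block. It was 0.0613, 0.0586 and 0.0554 without V/SVZ array 1, 2 or 3, and 0.0661 and 0.0649 without CP array 1 or 2. Under normexp the difference was -0.10.

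**Figure D4:**
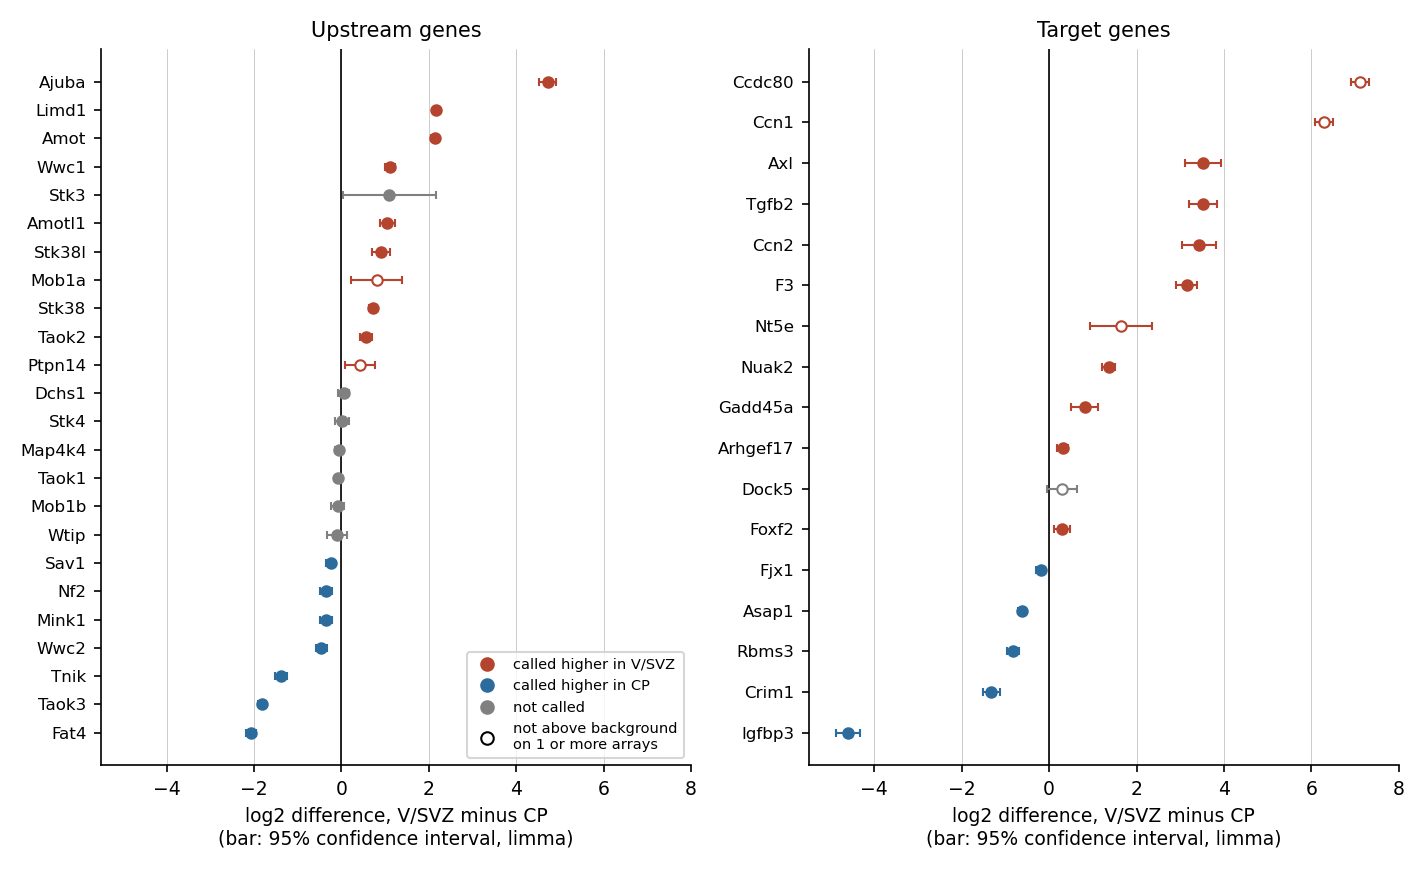
Log2 difference between V/SVZ and CP, with its 95% confidence interval, for the upstream pathway genes on the left and the target genes on the right; positive values are higher in V/SVZ and open symbols mark genes not well above background on at least 1 array. Ajuba (4.72) stands out on the left, and Ccdc80 (7.11), Ccn1 (6.29) and Igfbp3 (-4.61) on the right.

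The genes that Yap, Taz and Tead are known to activate were taken from a widely used target list, of which 19 genes remained after Lats2, Amotl2 and Ptpn14 were counted elsewhere. Of 17 that could be tested, 11 were higher in V/SVZ, 5 were higher in CP and 1 was not called. Over all genes tested, 35% were called towards V/SVZ and 44.6% towards CP. At 2-fold or more, 8 of 17 were called towards V/SVZ and 2 of 17 towards CP, beside 13.7% and 16.5% of all genes. The median difference was 0.82, beside -0.09 over all genes. The list comes mostly from other cell types, and its genes were called in both directions. Nt5e and Arhgef17, named for the loss of their calls under normexp, went from 1.64 to 0.21 (limma adjusted p = 0.0996) and from 0.31 to 0.13 (0.0757). Nt5e, counted among the 8 at 2-fold or more, was well above background on 0 of 4 CP arrays. This left a bound of 1.48-fold, and its normexp value lay below that bound. Ankrd1, a much-used Yap reporter gene, and Myof were not well above background on any array.

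Ccn1 and Ccn2, which encode the secreted matricellular proteins Cyr61 and Ctgf, are the classic targets. Ccn1 gave 0.90, 0.84, 0.76 and 0.90 in V/SVZ and -5.66, -5.44, -5.22 and -5.44 in CP, where 2 of 4 arrays were well above background. It was 78.3-fold higher in V/SVZ (6.29 ± 0.09 SE, limma adjusted p = 5.61e-10), and 28.5-fold higher under normexp. Its promoter match is shown with those of the members. Ccn2 gave 0.78, 0.64, 0.44 and 0.64 in V/SVZ and -2.59, -2.96, -3.20 and -2.47 in CP. It was 10.8-fold higher in V/SVZ (3.43 ± 0.16 SE, limma adjusted p = 2.87e-07). Neither gene overlapped between the tissues.

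Ccdc80, which encodes a secreted matrix protein, had the largest difference on the target list. It gave 1.70, 1.74, 1.72 and 1.59 in V/SVZ and -5.62, -5.45, -5.21 and -5.41 in CP, of which 2 of 4 CP values were well above background. It was 138-fold higher in V/SVZ, and 50.02-fold higher under normexp. Axl, a receptor tyrosine kinase, and Tgfb2, a growth factor, were both 11.5-fold higher in V/SVZ.

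Other targets went the opposite way. Igfbp3, which encodes a binding protein for insulin-like growth factors, gave -4.01, -4.38, -4.11 and -3.98 in V/SVZ and 0.63, 0.32, 0.68 and 0.35 in CP. All CP arrays were above all V/SVZ arrays, and Igfbp3 was 24.4-fold higher in CP (-4.61 ± 0.12 SE, limma adjusted p = 8.20e-09). Crim1, a transmembrane protein that binds growth factors, was 2.495-fold higher in CP, Rbms3, an RNA-binding protein, was 1.77-fold higher, and Asap1, a regulator of Arf GTPases, was 1.54-fold higher. Fjx1 was 1.14-fold higher in CP (-0.19), a call that was lost when arrays were scaled on their median (-0.10, limma adjusted p = 0.271). Dock5 was not called (0.30, limma adjusted p = 0.0982), but it was called without V/SVZ array 3 (0.41, limma adjusted p = 0.0168).

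Yap, Taz and their targets are also known from vessels, meninges and other non-neural cells, so markers of those cells were read in the same arrays. Summed levels are linear and taken over the tested markers of a list, in units of the array's 75th percentile, and counts of called markers stand beside 35% of all genes called towards V/SVZ and 44.6% towards CP. Endothelial markers summed to 13.4 to 14.3 in V/SVZ and 12.5 to 14.1 in CP. Of 10, 2 were higher in V/SVZ, 3 were higher in CP and 5 were not called, and the largest difference was that of Kdr, 1.25-fold higher in V/SVZ. Pericyte markers summed to 5.42 to 5.91 in V/SVZ and 2.43 to 2.92 in CP, with 4 of 8 called towards V/SVZ and 0 towards CP. The largest was Notch3, 9.11-fold higher in V/SVZ, a gene also known from neural progenitors. Without it the pericyte sums were 2.76 to 3.35 in V/SVZ and 2.13 to 2.64 in CP.

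Meningeal fibroblast markers summed to 1.096 to 1.51 in V/SVZ and 1.29 to 1.44 in CP. Col1a1, which enters these sums, was far lower on array 3 of both tissues, at -4.33 in V/SVZ and -4.34 in CP. It was -1.69 to -1.65 on the other V/SVZ arrays and -1.88 to -1.74 on the other CP arrays. Of 7 markers tested, 1 was higher in V/SVZ and 3 in CP, Lum at least 4.24-fold, while Aldh1a2 was well above background on 0 arrays. Slc6a13 was well above background on 1 V/SVZ array and was not tested. With normexp Lum was 3.65-fold higher in CP, below that bound. Microglial markers summed to 14.8 to 19.4 in V/SVZ and 12.7 to 15.0 in CP, with 7 of 10 called towards V/SVZ and 1 towards CP. The 1 was Itgam, the brightest marker of the list, at 5.27 to 8.28 in V/SVZ and 9.74 to 11.9 in CP. A dimmer Itgam probe was called the other way, higher in V/SVZ at 0.21 (limma adjusted p = 0.0409), and was -0.09 under normexp. Probes of the marker Csf1r also disagreed. Its brightest was called in V/SVZ at 1.64, and a dimmer one in CP at -0.23. Without Itgam the sums were 9.41 to 13.6 in V/SVZ and 2.91 to 4.06 in CP, with no overlap. P2ry12, a microglial receptor, was 5.22-fold higher in V/SVZ. Of the choroid plexus markers, Ttr, Kl and Clic6 were not well above background on any array. The other choroid plexus markers split, with Aqp1 2.17-fold higher in V/SVZ, and the list summed to 0.0822 to 0.102 in V/SVZ and 0.0559 to 0.0805 in CP. Interneuron markers summed to 6.81 to 8.03 in V/SVZ and 8.56 to 9.27 in CP. Of 7, 4 were higher in V/SVZ and 3 in CP, and Gad1 was 1.91-fold higher in CP. For comparison, the radial glia markers summed to 193 to 206 in V/SVZ and 11.6 to 13.1 in CP, and the neuron markers to 114 to 121 in V/SVZ and 366 to 383 in CP. The part of any of these cell types in the values of Yap1, Wwtr1, the Tead genes or their targets was not tested.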

How the data were processed

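Total RNA (100 ng) from 4 V/SVZ and 4 CP samples was amplified, labelled with Cy3 and hybridised to 1-colour arrays, as the labels' protocols state. The scanner software was Agilent Feature Extraction 10.7.1.1, per the file headers, and the deposited intensity is its background-subtracted processed signal per spot. Whether the authors scaled the arrays to each other before deposit is not given in the sources used here. A log2 table was deposited as well, with 17185 rows, 17163 of them gene probes. In 99.8% of rows the median is 0 (tolerance 1e-05), and column medians ran from -0.03 to 0.02. Its columns correlated at -0.94 or below with the arrays they are named for and above 0.999 with arrays of the other tissue carrying the same number. It therefore served as an alternative, read with the sign reversed. Its filter and its scaling stay unknown.

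The values analysed were log2 processed signal minus each array's 75th percentile, with spots of a probe averaged and outlier spots dropped (142 to 258 an array). Saturation was found in 0 gene spots. Probes entered the test if all 4 arrays of either tissue were well above background and each tissue had at least 3 measured arrays. This left 23853 of 39429 probes and 19225 genes, of which 13824 have a symbol and 5401 are unnamed identifiers counted as genes. RefSeq (GRCm38.p6) accessions named 26761 probes, and 12668 stayed unnamed. No probe coordinates are printed, because the arrays carry build mm9. Differences came from 1 limma 3.58.1 fit (lmFit, then eBayes) in R 4.3.3, and exact permutation tests used SciPy 1.17.1. The procedure was also run on simulated arrays with independent noise and no slide effect. That run does not cover the coincidence of slide with tissue in these data. The number of arrays limits the precision.

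The members and the gene lists were chosen with earlier results of these data known, so counts over them are descriptions. All members and probes were named. From the upstream and target lists these were the 5 called genes with the largest difference in each direction and every gene not called. From each marker list it was the called gene with the largest difference. Others were named where probes, arrays or settings disagreed or signal was low, after their values were seen. Replicate numbers come from the titles. Deviations of same-numbered arrays correlated at 0.339, 0.311, 0.121 and 0.206 for numbers 1 to 4. The highest correlation with another number was -0.057, 0.044, 0.171 and 0.160. V/SVZ array 3 was thus closer to CP array 2 than to CP array 3, and pairing by number is uncertain. The number was also used as a block. Alternatives covered scaling, background correction (normexp with offset 50 on median signals), filter, choice of probe, block, variance model, the deposited values and leaving out single arrays. Spike-in scaling was an addition made after seeing the data.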

Additional observations from a re-analysis of the deposited data

Results flagged for a closer look

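Among 109 groups of 4 arrays examined for the member, pathway and target probes, 8 had 1 array whose gap to the others exceeded Dixon's 95% critical value for 4 samples, where chance gives about 1 group in 20. All values are log2 relative to the array's 75th percentile. The brighter Tead2 probe was 0.087 on CP array 3 and -0.10 on the other CP arrays, a small shift beside its 4.46 difference between tissues. The second Lats2 probe was -5.58 on V/SVZ array 2 and -5.89 to -5.85 on the others. Stk3 was -2.50 on V/SVZ array 1 (others -0.996 to -0.86) and -3.42 on CP array 1 (others -2.14 to -2.04), the only gene of these with an array apart in both tissues. Mob1a, an adaptor of the Lats kinases, was -4.93 on CP array 4 and -6.07 to -6.00 on the other CP arrays. Wwc2 was 1.22 on V/SVZ array 1 and 1.097 to 1.099 on the others. Limd1 was 1.18 on V/SVZ array 3 and 1.27 to 1.28 on the others. Nt5e, a target gene that encodes an ectonucleotidase, was -4.75 on V/SVZ array 1 and -5.27 to -5.26 on the others. The causes were not tested.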

How the results depend on the processing

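Under the 18 alternatives, the 7 called member genes kept their direction and their call in every value that could be computed. Lats1 and Amotl2 were called under none, and their sign, near 0, turned in 4 of the 160 member values: Lats1 was 0.017 with median scaling, and Amotl2 was 0.062 with median scaling, 0.015 under normexp and 0.0092 without V/SVZ array 3 (-0.062 to 0.0092 over single arrays left out). Of 882 values of named genes, members included, 840 kept direction and side of the threshold, 13 lost the call, 10 gained it and 19 turned, 16 of these with no call under either setting. The other 3 were Taok2 at -0.30, read from its other probe when all 8 arrays had to be well above background, Map4k4 at 0.33 when probes were averaged, and Ptpn14 at -0.10 under normexp. Turned without a call were Stk4, at -0.050 with averaged probes, -0.117 under normexp, -0.060 with spike-in scaling, -0.039 without CP array 2 and -0.026 without V/SVZ array 4 (-0.039 to 0.053 over single arrays left out), and Map4k4, at 0.032 with median scaling, 0.020 under normexp and 0.0080 with quantile normalization. So did Mob1b, at 0.017 with averaged probes and 0.00097 with median scaling, Taok1, at 0.016 with median scaling, and Dchs1, at -0.019 with spike-in scaling. Of the counts and pairs of members, 220 values kept their call or stayed within 1.5 times. The exceptions were Tead1 minus Tead3, at 1.01 under normexp and -0.80 with the mean of probes, and the target genes higher in V/SVZ, which were 7 in the authors' deposited table, where fewer of them are listed. The cause of the Tead1 and Tead3 change was not tested. With the replicate number as a block, Stk3 gained its call (adjusted p = 8.52e-05), Ptpn14 lost it (0.0547), and no other member, pathway or target call changed. Low signal limits Tead3, Tead4 and the dimmer Tead1 and Lats2 probes. It also limits the CP values of Ccn1, Ccdc80, Nt5e, Mob1a and Ptpn14, whose folds depend on the background correction.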
